A study of Mus musculus with 2 samples.

Results

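The CCN proteins and a set of genes controlled by YAP and TEAD were examined in mouse cardiac myofibroblasts after knockdown of *Vgll3*. The set was chosen by gene name and holds 10 of the 24532 genes in the count table, namely *Ctgf*, *Cyr61*, *Nov*, *Wisp1* and *Wisp2* of the CCN family and *Ankrd1*, *Amotl2*, *Lats2*, *Ajuba* and *Crim1* among YAP/TEAD targets. The cells were CD45-negative cells from the infarcted hearts of C57BL/6 mice (the methods name C57BL/6J for work on isolated myofibroblasts), taken 3 days after myocardial infarction and grown in DMEM with 10% FBS, so both groups carry the injury and the culture. They received 12.5 nM of siRNA, either siControl (siCtrl, the control library) or siVgll3 (the knockdown library), with Lipofectamine RNAiMAX, and RNA was collected 72 h later. Each condition has 1 library and 1 siRNA, and no difference below has a replicate check. The number and age of the donor animals are not in the labels, but the methods name male mice, with an age range, for the infarction model. All 10 genes were measured in both libraries, with 6629 to 225001 reads per gene and library.

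YAP1 and TAZ (*Wwtr1*) are cofactors that enter the nucleus when cells spread on a stiff surface, where they bind the TEAD transcription factors and switch on target genes. The kinases LATS1 and LATS2 of the Hippo pathway hold YAP and TAZ in the cytoplasm. *Ctgf*, *Cyr61* and *Ankrd1* are the most widely used readouts of this axis, and CTGF is a known profibrotic factor of myofibroblasts. VGLL proteins also bind TEAD, through a short motif of their own, which is why the targets of TEAD are of interest in a *Vgll3* knockdown.

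The 10 genes did not move together. *Wisp2* was lower in the knockdown, *Ankrd1* was higher, and the 2 classical targets *Ctgf* and *Cyr61* stood at nearly the same TPM in both libraries. TPM is a level scaled for gene length and library size, which the authors computed. M is the log2 ratio of the TPM in the knockdown library to that in the control library, and A is log2 of the mean TPM of both libraries. A gene was called lower at M < −0.5 and higher at M > 0.5, in both cases with A > 0. By this rule 1 of the 10 genes was called lower, where 11.4% of all genes with A > 0 were, and 1 was called higher, where 5.73% were. With 1 gene of 10 in each direction, the members were close to the background, and the remaining 8 genes lay between the thresholds. The median M of the 10 genes was 0.0037, beside −0.045 over the 11754 genes with A > 0. M was below 0 at 5 members and above 0 at the other 5. Square brackets give the 95% Clopper-Pearson interval of each M, which covers counting error of these 2 libraries only. In bulk RNA, fewer cells of a type and less RNA per cell cannot be told apart.

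**Figure D1:**
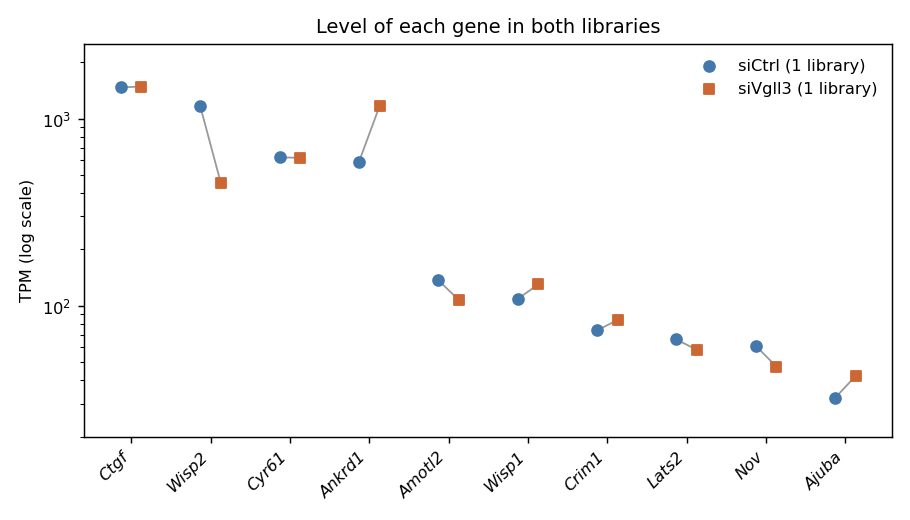
TPM of each gene (log scale) in the siCtrl library (circles) and the siVgll3 library (squares), ordered by the level in siCtrl. Lines join the values of a gene. Wisp2 falls from 1165 to 453 TPM, Ankrd1 goes from 586 to 1164 TPM, and Ctgf and Cyr61 are level.

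*Vgll3* itself was at 202 TPM in the control and 84.0 TPM in the knockdown, an M of −1.27 [−1.29, −1.24]. In keeping with the label of the cells, all 10 fibroblast and myofibroblast markers of the list were above 1 TPM, with *Acta2* at 3296 and 3866 TPM. Together they summed to 14943 TPM in the control and 11268 TPM in the knockdown, and their part in the values of the members was not tested. Called lower were 5 of the 10 (*Col1a1*, *Col1a2*, *Pdgfrb*, *Postn* and *Tcf21*) and called higher was 1 (*Thy1*), beside 11.4% and 5.73% of all genes. Of the leukocyte markers *Ptprc*, *Adgre1* and *Cd3e* had no reads in either library, and the 10 markers together made up 14.96 TPM in the control and 8.46 TPM in the knockdown. That sum was lower through *Lyz2*, at 10.9 and 3.13 TPM, while *Csf1r* and *Cd14* were called higher, with M of 0.50 and 0.62 at levels under 3 TPM. The endothelial markers summed to 27.2 and 22.8 TPM, most of it *Tek*, which was called lower with an M of −0.54. Of the 4 with A > 0, 2 had M below 0, *Tek* and *Emcn* (−0.022). *Pecam1* and *Cdh5* had M of 0.47 and 0.50, with *Pecam1* at 1.89 and 2.61 TPM and *Cdh5* at 2.13 and 3.01 TPM. Below that level *Kdr* had an M of 0.97, *Tie1* of −0.045 and *Vwf* of −0.51. The total was 140815237 reads on genes in the control library and 125789276 in the knockdown.

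The letters that TEAD proteins recognise, CATTCC or its reverse GGAATG, were looked for in the promoters of the members. Since the genes were picked as known targets of TEAD, the matches are not independent of that choice. RefSeq promoter windows (GRCm38.p6, the assembly also called mm10), each from 250 bases before to 50 bases after a start site, were found for 6 of the 10 genes, as 7 windows. *Ctgf*, *Nov*, *Wisp1* and *Wisp2* had no window. All 6 genes had a match on 1 strand or the other, in 6 of the 7 windows (1 of the windows of *Lats2* had none), and there were 8 matches in total. Of 32851 promoter windows of the same length, 14.7% hold 1 or more. The matches are shown with 10 bases on either side and the 6 letters in capitals, in the direction of transcription, to set the sites of *Ankrd1*, which was called higher, beside those of 5 genes that were not called.
Cyr61, 103 bases before the start: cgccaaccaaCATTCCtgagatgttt
Ankrd1, 210 bases before the start: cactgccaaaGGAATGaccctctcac
Ankrd1, 123 bases before the start: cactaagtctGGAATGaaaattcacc
Amotl2, 65 bases before the start: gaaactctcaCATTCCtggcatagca
Ajuba, 186 bases before the start: ttgatggataCATTCCacagtgcccc
Ajuba, 164 bases before the start: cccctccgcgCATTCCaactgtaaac
Crim1, 79 bases before the start: ggcgggggggGGAATGaggtaggatg
Lats2, 5 bases after the start: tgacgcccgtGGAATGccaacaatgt
Distances run to the first base of the match. The AP-1 letters TGANTCA are in none of the 7 windows and in 7.81% of all windows, and the CArG box of SRF is in none of the 7 and in 1.63% of all windows. A match to letters is not evidence of binding.

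The whole stretch before the start of *Cyr61* (chr3:145649986-145650235, minus strand) is given as the example of a classical target whose level barely differed.
Cyr61: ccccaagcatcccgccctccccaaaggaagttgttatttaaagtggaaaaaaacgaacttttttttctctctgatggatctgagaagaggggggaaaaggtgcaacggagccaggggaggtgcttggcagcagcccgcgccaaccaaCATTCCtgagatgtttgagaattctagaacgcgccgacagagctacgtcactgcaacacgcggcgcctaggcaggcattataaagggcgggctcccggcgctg
The capitals mark the same match as above.

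CCN proteins are secreted matricellular proteins that bind integrins and other receptors at the cell surface. *Ctgf* (CCN2, NCBI gene 14219, chromosome 10 from 24595442 to 24598683) was the most abundant member in both libraries. It had 225001 reads in the control library and 210136 in the knockdown, or 1467 TPM and 1481 TPM. Its M was 0.013 [0.0046, 0.022], so the level in the knockdown was 1.01 times that in the control, and the gene held rank 112 and rank 115 of the 14158 genes with TPM. A noncoding transcript, *Gm15270*, overlaps it on the other strand, and the strand setting of the counting is not given, so their reads cannot be told apart.

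*Cyr61* (CCN1, NCBI gene 16007, chromosome 3 from 145646971 to 145649985), an immediate early gene that promotes adhesion and angiogenesis, was at 620.0 TPM in the control and 617 TPM in the knockdown. These values rest on 80272 and 73987 reads. Its M of −0.0058 [−0.020, 0.0086] was the only one of the 10 whose interval held 0. The sign of that value depends on the scaling, since it was 0.045 with CPM, 0.037 with TMM and 0.034 with DESeq2. The intervals do not cover the choice of scaling, and M of *Ctgf* was 0.064 with CPM, outside its interval.

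*Wisp2* (CCN5, NCBI gene 22403, chromosome 2 from 163820752 to 163833146) is the CCN protein that lacks the carboxyl-terminal domain of the others and is described as an antagonist of CTGF in fibrosis. It had 132079 reads in the control library and 47521 in the knockdown, and fell from 1165 TPM to 453 TPM. The M was −1.36 [−1.38, −1.35], with 38.9% of the siCtrl level left. The gene went from rank 141 to rank 343. Among the 298 genes with A > 9, the highest expressed, 16 were called lower and only *Mgp* had a lower M than *Wisp2*, a comparison set after the values were seen. No annotated gene overlaps *Wisp2*.

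*Nov* (CCN3, NCBI gene 18133, chromosome 15 from 54745910 to 54753762), a member that opposes CTGF in several settings, was at 61.3 TPM in the control and 47.4 TPM in the knockdown. Its 9250 and 6629 reads gave an M of −0.37 [−0.41, −0.32], above the threshold for a lower gene. *Wisp1* (CCN4, NCBI gene 22402), a Wnt-induced CCN protein that lies further along the same chromosome from 66891369 to 66923201, was also between the thresholds. Its level was 109 TPM in the control and 130.2 TPM in the knockdown, an M of 0.26 [0.24, 0.28] from 34907 and 38641 reads. Of the 5 CCN genes, *Wisp2* alone passed the threshold. The last gene of the family, *Wisp3*, had 0 reads in each library, which allows up to 3 reads per library.

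Summed over the 5 CCN genes, TPM was 3423 in the control library and 2729 in the knockdown, or 0.343% and 0.273% of all TPM. Thus 79.7% of the siCtrl sum was left. *Wisp2* alone was lower by 712 TPM, where the whole sum was lower by 694 TPM, and without *Wisp2* the sum in the knockdown was 101% of that in the control. The composition shifted accordingly. *Wisp2* made up 34.1% of CCN TPM in the control and 16.6% in the knockdown, *Ctgf* made up 42.9% and 54.3%, and *Cyr61* made up 18.1% and 22.6%. The ratio of *Ctgf* to *Wisp2* was 1.26 in the control library and 3.27 in the knockdown.

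**Figure D2:**
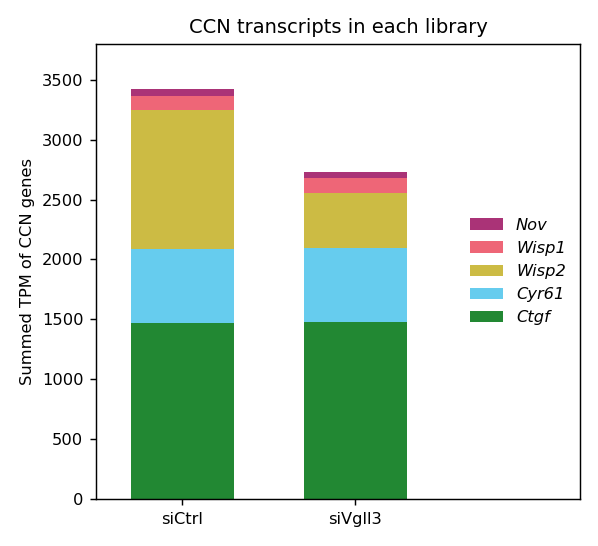
Summed TPM of the 5 CCN genes in each library (1 library per bar, axis from 0), stacked by gene. The Wisp2 layer shrinks from 1165 to 453 TPM while the Ctgf and Cyr61 layers keep their height.

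*Ankrd1* (NCBI gene 107765, chromosome 19 from 36111965 to 36119844) encodes a nuclear and sarcomeric ankyrin repeat protein that responds to stretch, and is a standard YAP/TEAD target. It had 66033 reads in the control library and 121413 in the knockdown. Its level rose from 586 to 1164 TPM, which is an M of 0.99 [0.98, 1.00], or 1.99-fold. In rank it went from 263 to 140, and among the 298 genes with A > 9 only *Gsto1* and *Plac8* had a higher M, again a comparison made after the values were seen. In the control *Ankrd1* was below *Cyr61*, with a ratio of 0.945, and in the knockdown it stood at 1.89 times *Cyr61* and second only to *Ctgf* among the 10 genes. M of *Ankrd1* exceeded that of *Wisp2* by 2.35.

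*Ankrd1* is also abundant in cardiomyocytes, and their markers were read beside it. Of the 9 cardiomyocyte markers, 7 had no reads in either library, among them *Myh6*, *Myh7*, *Actc1* and *Ttn*. *Tnni3* had 0 reads in the control library and 10 in the knockdown. *Tnnt2* was at 60.0 TPM in the control and 10.4 TPM in the knockdown, the opposite direction to *Ankrd1*. Among the 7 smooth muscle and pericyte markers, *Cnn1* was called higher, at 44.0 and 96.6 TPM, and *Notch3* was called lower, at 14.1 and 7.97 TPM, an M of −0.82. *Myh11* was below 1 TPM in both libraries with an M of −1.43, and *Cspg4* and *Rgs5* had M of −0.34 and −0.21. *Kcnj8* had 0 reads in the control library and 24 in the knockdown, and *Abcc9* had 6 and 20 reads. The part of contractile cells in the *Ankrd1* value was not tested.

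Among the members are 3 targets that act back on the Hippo pathway, of which AMOTL2 and LATS2 restrain YAP and AJUBA favours it. *Amotl2* (NCBI gene 56332, chromosome 9 from 102717091 to 102733418), an angiomotin that binds YAP at cell junctions, was at 137 TPM in the control and 107 TPM in the knockdown. Its 36680 and 26606 reads gave an M of −0.35 [−0.37, −0.33]. *Lats2* (NCBI gene 50523, chromosome 14 from 57689662 to 57746212), a kinase that phosphorylates YAP and TAZ, was at 66.2 and 58.2 TPM, an M of −0.19 [−0.21, −0.16] from 21227 and 16982 reads. *Ajuba* (NCBI gene 16475, chromosome 14 from 54567469 to 54577661), a LIM protein that inhibits LATS kinases, was at 32.3 and 42.3 TPM, an M of 0.39 [0.35, 0.44] from 7220 and 8757 reads. All 3 lay between the thresholds, with M below 0 for the angiomotin and the kinase and above 0 for the LATS inhibitor. *Lats2* overlaps 3 annotated genes, 1 of them, *Gm49361*, on the same strand, so part of its reads is of uncertain origin.

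*Crim1* (NCBI gene 50766, chromosome 17 from 78200233 to 78376592), a transmembrane protein with cysteine-rich repeats that binds BMPs, was at 73.9 TPM in the control and 84.2 TPM in the knockdown. Its M was 0.19 [0.16, 0.21] from 28287 and 29822 reads. It overlaps 2 annotated genes, *Gm25069* on its own strand and *Fez2* on the other. Against the median of all genes, its M was higher by 0.23.

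**Figure D3:**
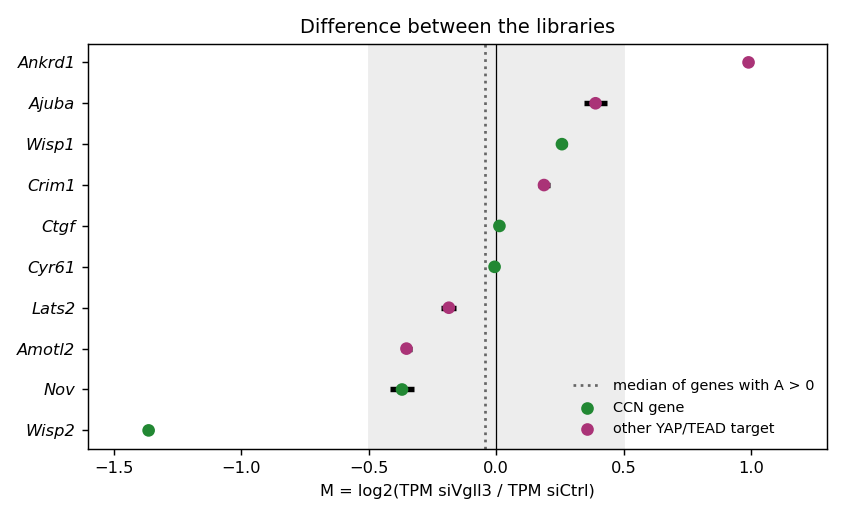
M of each gene, the log2 ratio of TPM in siVgll3 to siCtrl, with its 95% counting interval (black bar, mostly hidden by the point). The shaded band spans −0.5 to 0.5 and the dotted line is the median of all genes with A > 0. Wisp2 at −1.36 and Ankrd1 at 0.99 lie outside the band.

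**Figure D4:**
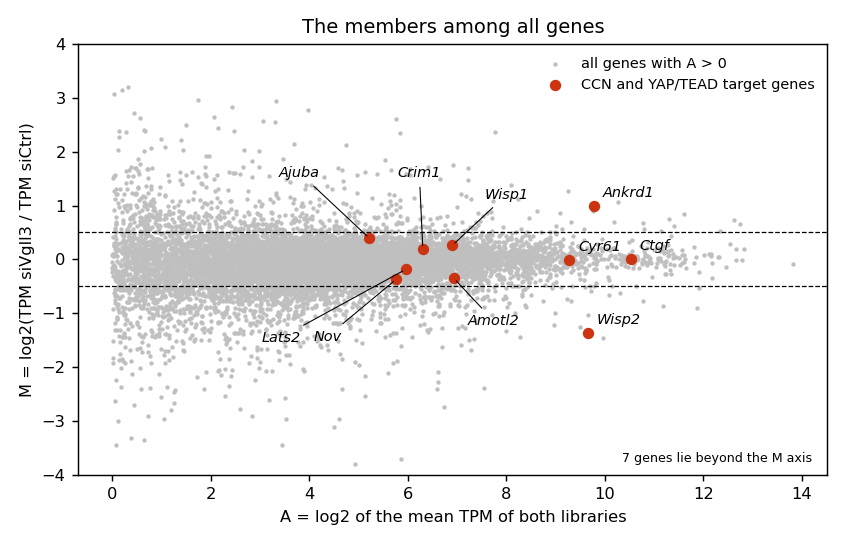
M against A for all 11754 genes with A > 0 (grey), with 7 genes beyond the M axis, and the 10 members in red. Dashed lines mark M of −0.5 and 0.5. At high A the grey points lie close to 0, and Wisp2 and Ankrd1 stand outside most of them.

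By level the 10 genes fell into a high and a low group in both libraries. In the control *Ctgf*, *Wisp2*, *Cyr61* and *Ankrd1* were at 586 to 1467 TPM and the other 6 genes at 32.3 to 137 TPM. In the knockdown the order at the top was *Ctgf*, *Ankrd1*, *Cyr61* and *Wisp2*. The counting intervals of neighbours in the order of level did not overlap in either library (*Cyr61* at 616 to 624 TPM and *Ankrd1* at 582 to 590 TPM in the control, for example). Whether neighbours differ beyond biological spread was not tested, for want of replicates. Of the 4 genes of high level, 1 was called lower and 1 higher. All 4 had A > 9, a cut set after the values were seen. Of the 298 genes with A > 9, 16 were called lower and 19 higher. Of the 11754 genes with A > 0, 1341 (11.4%) were called lower and 674 (5.73%) higher. Lower calls thus outnumbered higher calls over all genes, but not at A > 9.

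Among 9 close relatives of the members, 5 had A > 0. None of these was called lower or higher, beside 11.4% and 5.73% of all genes with A > 0. With 5 genes that is close to the background. *Amot*, from the family of *Amotl2*, was at 4.38 and 5.83 TPM, an M of 0.41. *Lats1* was at 26.9 and 24.7 TPM, an M of −0.12, near that of *Lats2*. The relatives of *Ajuba*, *Limd1* and *Wtip*, had M of −0.0072 and −0.14. *Ankrd2* and *Ankrd23*, from the family of *Ankrd1*, were nearly silent, with 0 and 8 reads for *Ankrd2* and 65 and 18 reads for *Ankrd23* in the control library and the knockdown.

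Other genes commonly listed as YAP/TEAD targets, 16 genes that are not members, were all at A > 0. Of these, 4 were called lower, 2 higher and 10 neither, where 11.4% of all genes were called lower and 5.73% higher. The median M was −0.21, beside −0.045 over all genes with A > 0, and 12 genes were below 0. The list was chosen with earlier results of these data known, so these counts are no independent comparison with all genes. *Igfbp3*, an IGF-binding protein, had the lowest M, −1.16, and went from 21.3 to 9.53 TPM. *Ccdc80*, a matrix protein, went from 194 to 95.8 TPM, an M of −1.02. The ligand gene *Tgfb2* had an M of −0.58 and *Fjx1* an M of −0.58 at 6.61 and 4.43 TPM. *Foxf2* had an M of 1.04 but at only 2.39 and 4.92 TPM, and *Dock5* an M of 0.65. The receptor tyrosine kinase gene *Axl*, the most abundant of the 16, was at 280 and 312 TPM, an M of 0.15, and *F3*, tissue factor, had an M of −0.19.

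Among 19 Hippo components, 0 were called lower and 1 higher, beside 11.4% and 5.73% of all genes, and the median M was −0.0072. All the close relatives with A > 0 above are also in this list, so these lists are not independent. The gene called higher was *Rassf1*, a scaffold of the MST kinases, at 65.4 and 99.7 TPM, an M of 0.61. The kinase gene *Map4k4* had an M of 0.13, and *Sav1* and *Mob1a* had M of 0.068 and 0.026. *Yap1* was at 87.0 and 94.96 TPM and *Wwtr1* at 95.2 and 103 TPM, with M of 0.13 and 0.12. Among the TEAD genes *Tead1* had an M of −0.21, *Tead3* of −0.19 and *Tead2* of 0.46. *Tead4* was called higher at 1.57 and 2.80 TPM, an M of 0.84.

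Of 11 genes for receptors of CCN proteins, 9 had A > 0, with a median M of −0.34, beside −0.045 over all genes, and 8 genes below 0. Of the 9, 1 was called lower and 1 higher, close to the shares of 11.4% and 5.73% over all genes. *Itgb3*, the beta chain that pairs with *Itgav*, was called lower at 21.5 and 12.9 TPM, an M of −0.74. *Itga5*, the fibronectin receptor chain, was called higher at 135 and 210.0 TPM, an M of 0.64. *Itgb1* was at 1101 and 1004 TPM, *Itgb5* at 441 and 328 TPM and *Sdc4* at 279 and 205 TPM, with M of −0.13, −0.43 and −0.44. *Itgam*, a leukocyte integrin, had no reads.

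**Figure D5:**
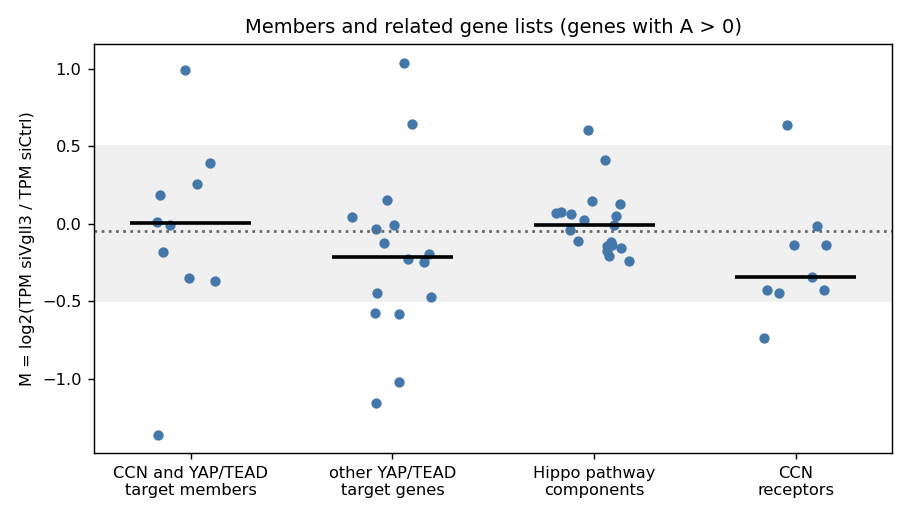
M of the genes with A > 0 in the set of members and in the lists of other YAP/TEAD targets, Hippo components and CCN receptors (points), with each list's median as a black line and the median of all genes as a dotted line. The members' median sits near 0 and that of the receptors at −0.34. Points outside the shaded band are past the threshold of 0.5.

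The study also concerns microRNAs of the miR-29 family, which repress many matrix genes, and matches to them in the mRNAs were looked up after the values were seen. The 3 mature forms share the same seed, bases 2 to 8, shown in capitals.
mmu-miR-29a-3p: uAGCACCAucugaaaucgguua
mmu-miR-29b-3p: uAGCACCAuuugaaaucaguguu
mmu-miR-29c-3p: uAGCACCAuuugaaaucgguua
The reverse complement of the seed, TGGTGCT, was sought in the 3′ UTR of 1 transcript per gene (GENCODE vM21), for each member one that the count table lists. It was found in 2 of the 10 genes, with 3 matches, and in 14.3% of the 11248 genes with A > 0 and a 3′ UTR. These shares do not allow for UTR length. The median was 1018.5 bases over the 11248 genes, and the UTR had 3747 bases in *Wisp1* and 1459 in *Ajuba*. *Wisp1* and *Ajuba*, the genes with matches, had M above 0, as had 5 of the 10 members in all, and *Wisp2* had no match. Any link between the matches and M was not tested. The matches are shown with 8 bases on either side and the 7 letters in capitals.
Wisp1, first base 1896 of the UTR: gcaaacagTGGTGCTtaagatgt
Wisp1, first base 2505 of the UTR: agcttattTGGTGCTaagcccta
Ajuba, first base 315 of the UTR: caatgttcTGGTGCTggatcaca
The libraries of polyadenylated RNA do not measure mature microRNAs.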

How the data were processed

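RNA of 2 cultures of mouse cardiac myofibroblasts, 1 with siCtrl and 1 with si*Vgll3*, was made into stranded mRNA libraries and sequenced on an Illumina NovaSeq instrument. Per the labels and the methods, the authors used FastQC, Trimmomatic, HISAT2 on mm10 and StringTie; versions, annotation release and the strand setting of the counting are not given in the sources used here. The authors deposited raw read counts per gene, with no normalization, and TPM per gene, already scaled for length and library size. The study states a threshold on M and A for lower genes; the definitions of M and A from TPM and the mirrored threshold for higher genes were chosen here. Intervals of M are 95% Clopper-Pearson on the count ratio, given the sum of both counts, shifted onto the TPM ratio. They were run on counts simulated as independent Poisson draws, the model they assume, so that run does not show how they hold for real reads. Intervals of TPM in a single library are 95% Poisson limits of the read count, scaled to TPM. Sequenced reads are not independent molecules, so intervals cover counting error only. With 1 library per condition no model was fitted and no test made, and edgeR 4.0.16 and DESeq2 1.42.0 gave scaling factors only. Members and lists were chosen with earlier results of these data known. Genes named are all members, *Vgll3*, and in each related list other than cell type markers those past a threshold and the 3 of highest mean TPM; others were named after their values were seen. Gene positions are RefSeq GRCm38.p6; overlaps and 3′ UTRs are from GENCODE vM21, matched by NCBI gene ID. Alternatives were CPM, TMM or DESeq2 scaling, 0.1 or 1 TPM added, other filters on A, a threshold of 1 and intervals wholly past 0.5.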

Additional observations from a re-analysis of the deposited data

How the results depend on the processing

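No alternative turned a call of *Wisp2* or *Ankrd1* to the other direction. M of *Wisp2* stayed between −1.36 and −1.31 and that of *Ankrd1* between 0.99 and 1.04 under CPM, TMM or DESeq2 scaling and with 0.1 or 1 TPM added. The sign of M held at 9 of the 10 members under these 5 settings, and *Cyr61* went from −0.0058 to 0.045 with CPM, 0.037 with TMM and 0.034 with DESeq2. M of *Ctgf* was 0.064 with CPM, 0.056 with TMM and 0.053 with DESeq2, outside its counting interval of 0.0046 to 0.022. With CPM the median M of the members was 0.055, and that of all genes moved from −0.045 to 0.0056. Without the filter on A, 2103 genes were called lower and 1428 higher. At A > 2, 393 genes were called higher, and 1 of the other YAP/TEAD targets. At a threshold of 1, 384 genes were called lower and 207 higher, and *Ankrd1* lost its call, leaving 0 members called higher. In the lists, 2 other YAP/TEAD targets were then lower and 1 higher, 0 Hippo components were higher, and 0 CCN receptors were lower and 0 higher. With the whole interval past 0.5, 442 genes were called higher, and 3 of the other YAP/TEAD targets were called lower in place of 4. With 1 TPM added, 3 of these targets were called lower too. No paired analysis was possible because 1 library of siCtrl and 1 of siVgll3 leave a single pair at most. For the same reason no library could be left out, and the depth bounds counting error only, not the spread between cultures.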
